A study of Mus musculus with 6 samples.

Results

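The replication-dependent histone genes were examined here as the 70 genes whose symbol in GENCODE release M21 of the mouse begins with Hist1h, Hist2h, Hist3h or Hist4h, out of 55401 gene rows in the deposited table. They were joined to the table by Ensembl identifier, and every member had a row. By cluster, 56 belong to Hist1 on chromosome 13, 10 to Hist2 on chromosome 3, 3 to Hist3 on chromosome 11 and 1 to Hist4 on chromosome 6. By histone class, 6 encode linker histone H1, 20 H2A, 19 H2B, 12 H3 and 13 H4, with Hist1h2aj, Hist1h2al and Hist3h2bb-ps annotated as pseudogenes and counted with the class of their symbol.

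The study sequenced RNA from the cerebral cortex of C57BL/6 mouse embryos on embryonic day 18. Of its 6 bulk libraries, 3 came from embryos with both copies of Csmd3 disrupted (Csmd3-/-, called HOMO in the labels) and 3 from wild-type (WT) embryos, all obtained from matings of heterozygous parents. Csmd3 encodes a large transmembrane protein with CUB and Sushi domains. The sources used here do not say which part of the gene was removed, or whether each library came from 1 embryo or several, so p-values measure the spread between these libraries.

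Cells that copy their DNA need new histones in bulk, and these genes supply them during S phase. Each gene is short and usually without introns, and its mRNA typically ends just past a conserved stem-loop, which the stem-loop binding protein holds, in place of a poly(A) tail. The cortex at this age contains dividing progenitors beside many neurons that have left the cell cycle, and some histone genes are known to make polyadenylated transcripts in cells that no longer divide.

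The stem-loop that defines this mRNA class was searched in the annotated transcripts of all members, on the sense strand only. The pattern was GG, any 2 bases, CTTTT, any base, AG, any 2 bases and CC, 16 bases in all. Its free bases were not required to pair, so a match in letters need not form a stem. The pattern was found in 44 of the 70 members, and in 52 of 58725 other protein-coding transcripts (0.0885%). Of the 44, 22 were annotated to end within 100 bases past the stem-loop, 22 had a longer annotated tail, and the other 26 members had no match in their annotated transcript. The sequence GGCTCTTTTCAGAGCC accounted for 26 matches, in classes H1, H2A, H2B and H3. All matches in H4 genes were of other forms: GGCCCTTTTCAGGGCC in 7, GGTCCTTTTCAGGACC in 2 and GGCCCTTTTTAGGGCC in 2. The members below carry most of the counts, have an unadjusted p under 0.05, or show its other forms. Each is shown 5′ to 3′ on the strand of its gene (mm10, GENCODE M21 transcripts), with the 16 bases of the stem-loop in capitals.
Hist3h2a, chr11:58955167-58955196, plus strand: ccaaaGGCTCTTTTCAGAGCCacccacaac
Hist3h2ba, chr11:58949344-58949373, plus strand: ccaaaGGCTCTTTTCAGAGCCaccttccaa
Hist1h1c, chr13:23739507-23739536, plus strand: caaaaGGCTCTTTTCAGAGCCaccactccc
Hist1h2bg, chr13:23571838-23571867, plus strand: ccaaaGGCTCTTTTCAGAGCCacccatact
Hist1h2bj, chr13:22043633-22043662, plus strand: ccaaaGGCTCTTTTCAGAGCCacgcacaat
Hist2h2ac, chr3:96220409-96220438, minus strand: aaaaaGGCTCTTTTTAGAGCCaccaaatct
Hist1h3c, chr13:23745038-23745067, minus strand: aaaaaGGCTCTTTTAAGAGCCacctaagat
Hist4h4, chr6:136803989-136804018, minus strand: acaaaGGCCCTTTTCAGGGCCcacaaagca
Hist1h4b, chr13:23757361-23757390, plus strand: caaaaGGTCCTTTTCAGGACCactcactga
Hist1h4i, chr13:22040957-22040986, minus strand: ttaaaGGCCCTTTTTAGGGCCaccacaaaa

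Deposited totals were 68269607, 62987291 and 54244288 counts in knockout libraries 1, 2 and 3 and 60716370, 58879568 and 57531791 in wild-type libraries 1, 2 and 3. Csmd3 itself had 675, 653 and 543 counts in knockout libraries, against 992, 765 and 867 in wild-type libraries, a log2 fold change of -0.59 (SE 0.13, adjusted p = 0.0233 in the edgeR fit). That call needed every knockout library (adjusted p of 0.0741 to 0.101 when any was left out) and wild-type library 1 (0.0826 without it). Of 19844 genes tested, 1033 were called higher in knockout libraries and 503 lower, at an adjusted p under 0.05. Low counts pile up at multiples of 4, as if each fragment were counted 4 times, so a count of 40 stands for about 10 fragments.

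The histone genes were a small part of these libraries, and a few of them held most of the counts. All 70 together took 0.0266%, 0.0266% and 0.0252% of the counts in knockout libraries, against 0.0234%, 0.0269% and 0.0260% in wild-type libraries, so the groups overlap. Hist3h2a and Hist3h2ba, a gene for H2A and a gene for H2B in the small Hist3 cluster, held 73.9% to 80.4% of the members' counts in every library. With Hist2h2be, Hist1h1c and Hist1h2bc the share was 87.3% to 91.5%. At the other end, 56 of the 70 members had a mean count under 40, and Hist1h2aa, Hist1h2al, Hist2h2aa1 and Hist2h2aa2 had no count in any library. Of the 75-base stretches of Hist2h2aa1 and Hist2h2aa2, 88.9% and 100% occur in another annotated gene, so their zeros do not show that the mRNA was missing. Gm20634, the gene that shares the most stretches with each, also had no count in any library. Gm20632, which overlaps Hist2h2aa2 on the opposite strand, had 382, 403 and 303 counts in knockout libraries, against 355, 374 and 379 in wild-type libraries. The filter on low counts left 43 members tested, of which 29 had a mean count under 40. The labels name total RNA as the molecule and do not say how mRNA was selected for the libraries, so the counts do not show how well transcripts without a poly(A) tail were captured.

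Per kilobase of annotated exon, the mean over the 6 libraries was 160 CPM (counts relative to the scaled library size) for Hist3h2ba and 46.1 for Hist3h2a. The next were Hist1h2bc (H2B) at 7.92, Hist1h1c (linker histone H1.2) at 6.50, Hist1h4i (H4) at 6.35 and Hist2h2be (H2B) at 5.71 CPM per kb. Only 15 of the 70 members exceeded 1 CPM per kb, and the median was 0.332. Hist1h2aa and Hist1h2ba, which encode testis H2A and H2B, and Hist1h1t, the testis H1, were at or near 0, with at most 4 counts in any library.

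**Figure D1:**
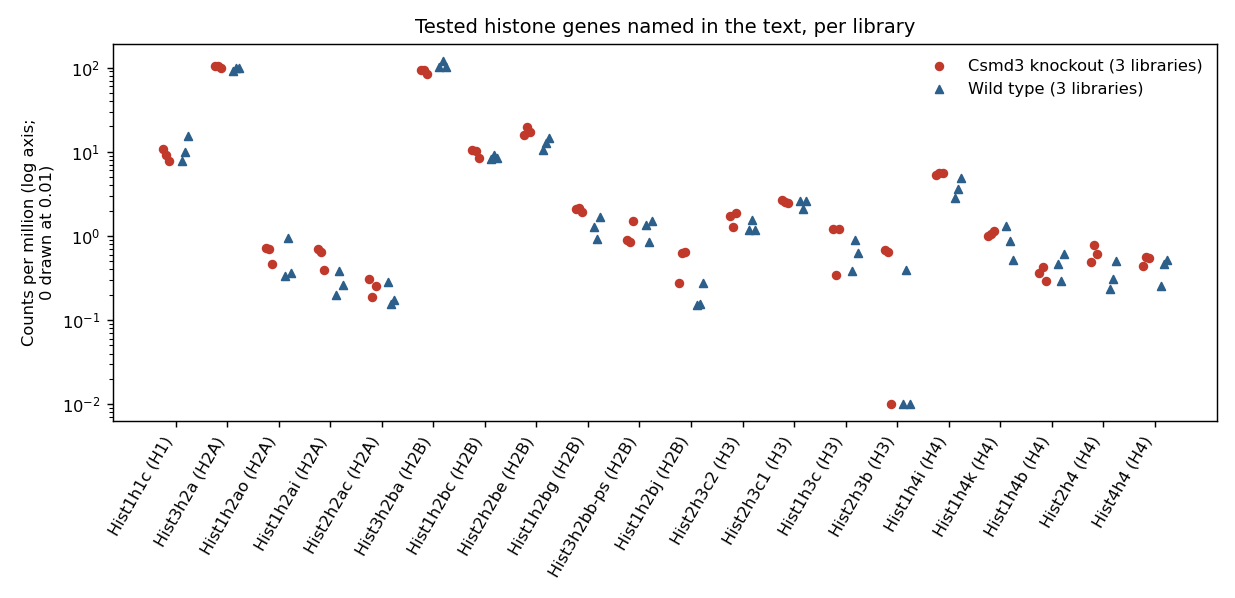
CPM on a log axis for the 20 tested histone genes named by rule, grouped by class, with a point for each library (knockout circles left, wild-type triangles right). Hist3h2a and Hist3h2ba stand between 83.0 and 119 CPM, the rest at 19.5 CPM or below, and for most genes the groups overlap.

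No histone gene was called higher and none lower in Csmd3 knockout cortex at an adjusted p under 0.05, where 5.21% of all tested genes were called higher, 2.53% lower and 7.74% in either direction. The lowest adjusted p among the 43 tested members was 0.0840, for Hist2h2be, and DESeq2 called that gene alone (1 higher, 0 lower). At an unadjusted p under 0.05, 4 members were higher (Hist2h2be, Hist1h4i, Hist1h2bg and Hist1h2bj), against 12.5% of all genes, and 1 was lower (Hist3h2ba), against 9.71% of all genes. By both counts the members did not exceed the background. The knockout libraries lay wholly above the wild-type libraries for 9 of the 43 and wholly below for 1, against 15.6% and 13.5% of all genes; the first was a little over its background share and the second under it. The estimates of low members were loose: the median SE of the log2 fold change was 0.56 over the tested members and 0.164 over all genes. In bulk tissue, fewer cells that make a histone mRNA and less of it per cell cannot be told apart.

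The members' estimates were nevertheless mostly on the positive side. The log2 fold change was above 0 for 31 of the 43 (72.1%), against 50.3% of all genes, and its median was 0.43, against 0.0020 for all genes, with a range of -0.58 to 1.74. By class, the estimate was above 0 for 9 of 11 H2A genes (median 0.28), 9 of 12 H2B genes (0.55), 7 of 8 H3 genes (0.51) and 6 of 11 H4 genes (0.22), while the only H1 gene tested was below 0. By cluster, it was above 0 for 23 of 33 Hist1 genes (median 0.54), all 6 tested Hist2 genes (0.40), 1 of 3 Hist3 genes (-0.20) and the Hist4 gene (0.32). Members share their libraries and, in part, their reads, so these counts are a description and not independent observations. The median depended on which genes passed the filter: over the 11 members with at least 1 CPM in 3 libraries it was 0.18, and over the 15 tested after counts were divided by 4 it was 0.17. The main filter asked for enough counts in any 3 libraries. A low member could thus pass through the genotype in which it was higher. For example, Hist1h2bj, Hist1h2ap, Hist1h3h and Hist1h4n passed mainly through knockout libraries, and Hist1h2af mainly through wild-type libraries. With no filter the median was 0.55 over 66 members.

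**Figure D2:**
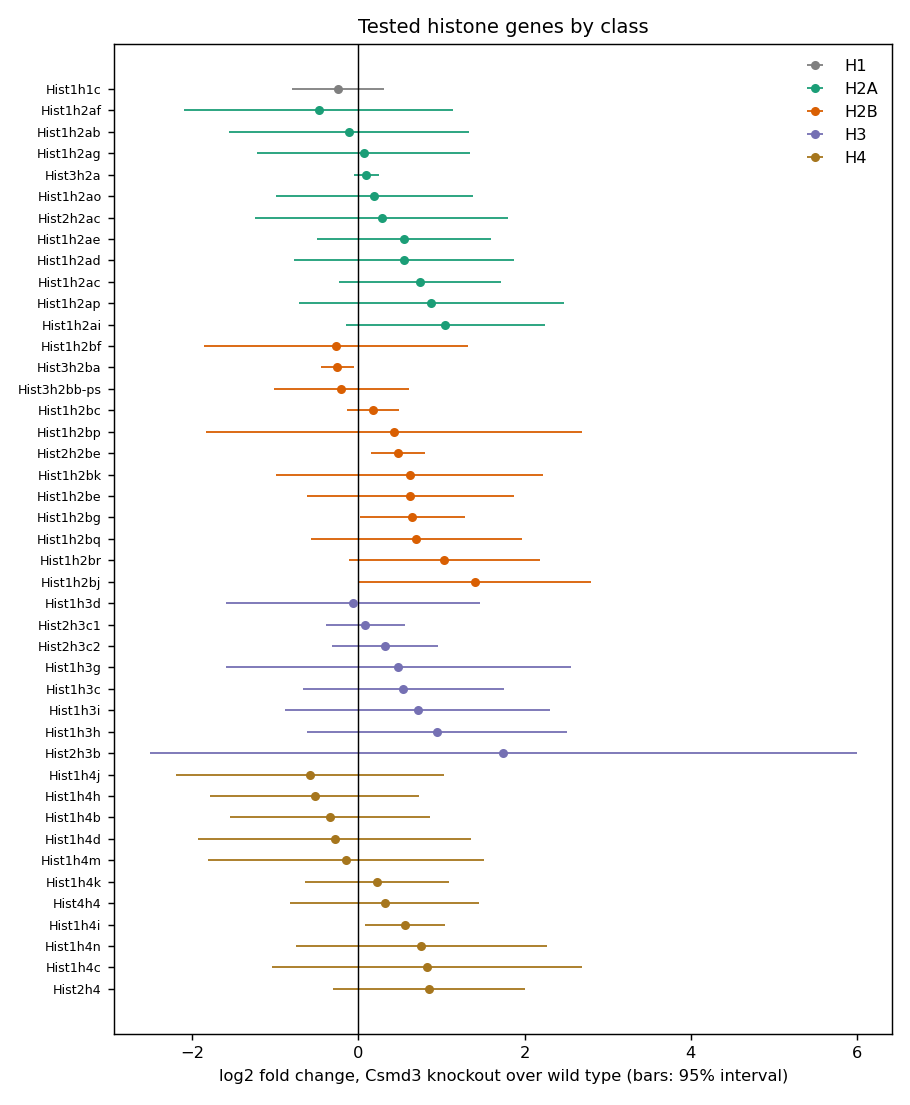
Log2 fold change of knockout over wild type for the 43 tested histone genes, sorted within class, with bars for the 95% interval of the fit. Most points lie right of 0, and most intervals cross it; those of Hist2h2be, Hist1h4i, Hist1h2bg and Hist1h2bj lie above 0 and that of Hist3h2ba lies below.

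The Hist3 cluster held the most abundant H2A and H2B genes, and their estimates pointed in opposite directions. Hist3h2a (chr11:58954685-58956830) had 7122, 6551 and 5501 counts in knockout libraries, against 5404, 5704 and 5604 in wild-type libraries. Scaled to library size this was 102 ± 2.51 CPM in knockout and 95.6 ± 4.35 CPM in wild type (SD, n = 3 each), and although the groups do not overlap, the difference was small. The log2 fold change was 0.10 (SE 0.07, 95% interval -0.06 to 0.25, adjusted p = 0.475). Hist3h2ba (chr11:58948920-58949533) had 93.1, 92.5 and 83.0 CPM in knockout libraries, against 101, 119 and 100.4 CPM in wild-type libraries. Every knockout library was below every wild-type library, with a log2 fold change of -0.26 (SE 0.09, 95% interval -0.45 to -0.06) that missed the threshold (unadjusted p = 0.0176, adjusted p = 0.126). The pseudogene between them, Hist3h2bb-ps, had 61, 53 and 83 counts in knockout libraries, against 81, 49 and 86 in wild-type libraries, with overlapping groups.

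The ratio of the abundant Hist3 genes does not depend on how libraries are scaled. Counts of Hist3h2ba per count of Hist3h2a were 0.898, 0.894 and 0.837 in knockout libraries, against 1.12, 1.21 and 1.03 in wild-type libraries. The means were 0.876 ± 0.0340 in knockout and 1.12 ± 0.0924 in wild type (SD, n = 3 each), and the groups do not overlap. This ratio was taken up after the values had been seen, so it carries no test. The annotated exons of Hist3h2a also overlap those of Trim17 on the same strand, and Trim17 had 376, 224 and 183 counts in knockout libraries, against 229, 247 and 312 in wild-type libraries.

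In the Hist2 cluster the estimates of all 6 tested genes were above 0, and its H2B gene had the lowest p. Hist2h2be (chr3:96221119-96223738), known in mouse olfactory neurons as the source of the H2B variant H2be, had 1087, 1231 and 940 counts in knockout libraries, against 631, 727 and 828 in wild-type libraries. Every knockout library was above every wild-type library, at 17.4 ± 1.86 CPM in knockout and 12.5 ± 1.94 CPM in wild type (SD, n = 3 each). The log2 fold change was 0.48 (SE 0.15, 95% interval 0.15 to 0.80, adjusted p = 0.0840), short of the threshold; DESeq2 on the same counts gave an adjusted p of 0.0330, and edgeR gave 0.0350 without wild-type library 3, within a range of 0.0330 to 0.725 over all alternatives. None of its 75-base stretches occurred in another annotated gene, so this value does not rest on how reads were divided between copies.

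The other Hist2 genes were lower and less certain. For H3, Hist2h3c1 had 185, 161 and 137 counts in knockout libraries, against 155, 121 and 148 in wild-type libraries, and Hist2h3c2 had 118, 80 and 105, against 70, 89 and 68. Their log2 fold changes were 0.09 (SE 0.21) and 0.32 (SE 0.28), and the groups overlap for both. For Hist2h3c2, 62.6% of 75-base stretches occur in other annotated genes. Hist2h3b had 47, 41 and 0 counts in knockout libraries, against 0, 23 and 0 in wild-type libraries. Its estimate of 1.74 had an SE of 1.78, and 78.5% of its 75-base stretches occur in other annotated genes, as do all of those of Hist2h3c1, which lies within the annotated transcript Gm20634 on the same strand. Hist2h3b also overlaps Gm20628 on the opposite strand, and their reads cannot be told apart here. Gm20628 had 71, 44 and 50 counts in knockout libraries, against 4, 23 and 37 in wild-type libraries (log2 fold change 1.24, SE 0.66). The H4 gene Hist2h4 had 34, 50 and 34 counts in knockout libraries, against 14, 18 and 29 in wild-type libraries (log2 fold change 0.85, SE 0.51, adjusted p = 0.385), and its libraries overlap after scaling. The H2A gene Hist2h2ac had 21, 12 and 14 counts in knockout libraries, against 17, 9 and 10 in wild-type libraries. The unlinked H4 gene Hist4h4 on chromosome 6 had 30, 36 and 30 counts in knockout libraries, against 15, 27 and 30 in wild-type libraries (0.32, SE 0.51). No histone gene in this paragraph had an adjusted p under 0.385.

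In Hist1, the linker histone genes were uneven between libraries of the same genotype. Hist1h1c had 746, 585 and 428 counts in knockout libraries, against 467, 580 and 872 in wild-type libraries. The groups overlap after scaling, at 9.27 ± 1.57 CPM in knockout and 11.0 ± 3.80 CPM in wild type (SD, n = 3 each). The log2 fold change was -0.25 (SE 0.24, 95% interval -0.80 to 0.31, adjusted p = 0.626), and it was 0.06 without wild-type library 3. The next H1 genes by level per kilobase were too low to test. Hist1h1b (H1.5) had 2, 10 and 4 counts in knockout libraries, against 0, 8 and 19 in wild-type libraries. For Hist1h1a (H1.1) the counts were 6, 8 and 8, against 0, 5 and 0. Hist1h1e (H1.4), named after its values were seen, had 20, 8 and 15 counts in knockout libraries, against 1, 6 and 4 in wild-type libraries. Hist1h1d, also untested and named after its values were seen, had 31, 7 and 8, against 2, 4 and 21, with overlap.

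Among the core histones of Hist1, Hist1h4i and Hist1h2bg had no overlap of the genotypes and an unadjusted p under 0.05. Hist1h4i (chr13:22040636-22041362) had 5.33, 5.64 and 5.52 CPM in knockout libraries, against 2.80, 3.57 and 4.84 CPM in wild-type libraries. The knockout libraries were close together and all above the wild-type libraries, which were spread out. The log2 fold change was 0.56 (SE 0.22, 95% interval 0.08 to 1.04, unadjusted p = 0.0279, adjusted p = 0.161), and without wild-type library 3 it was 0.79 with an adjusted p of 0.0377, the lowest of a range up to 0.726 over its alternatives. Hist1h2bg (chr13:23571396-23572013) had 143, 134 and 106 counts in knockout libraries, against 77, 54 and 96 in wild-type libraries. Again no library of the genotypes overlapped after scaling, and the log2 fold change was 0.65 (SE 0.28, 95% interval 0.01 to 1.28, adjusted p = 0.215). Hist1h2bj, a lower H2B gene, had 19, 40 and 36 counts in knockout libraries, against 9, 9 and 16 in wild-type libraries (1.40, SE 0.62, adjusted p = 0.224), and its groups overlap after scaling.

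The highest Hist1 gene per kilobase differed less. Hist1h2bc, an H2B gene with an annotated intron, had 725, 638 and 471 counts in knockout libraries, against 493, 535 and 477 in wild-type libraries. This was 9.71 ± 1.08 CPM in knockout and 8.60 ± 0.536 CPM in wild type (SD, n = 3 each), with a log2 fold change of 0.18 (SE 0.14, 95% interval -0.14 to 0.49, adjusted p = 0.523) and overlapping groups. The H4 gene Hist1h4k had 68, 66 and 64 counts in knockout libraries, against 79, 51 and 30 in wild-type libraries, and Hist1h4b had 25, 27 and 16, against 28, 17 and 35. The wild-type libraries bracket or overlap the knockout libraries for both, and the estimates were 0.22 (SE 0.39) and -0.34 (SE 0.54). The H3 gene Hist1h3c had 84, 22 and 67 counts in knockout libraries, against 23, 52 and 36 in wild-type libraries (0.54, SE 0.54). For H2A, Hist1h2ai had 48, 41 and 22 counts in knockout libraries, against 12, 22 and 15 in wild-type libraries, without overlap after scaling (1.05, SE 0.53, adjusted p = 0.294), and Hist1h2ao had 49, 44 and 26, against 20, 55 and 21, with overlap (0.19, SE 0.53).

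The other members whose groups did not overlap were low, and are named after their values were seen. Hist1h2br had 37, 54 and 36 counts in knockout libraries, against 19, 12 and 27 in wild-type libraries. Hist1h2ap (22, 14 and 14, against 6, 12 and 7), Hist1h3h (19, 21 and 18, against 5, 14 and 9) and Hist1h4n (18, 15 and 16, against 8, 9 and 10) rest on a handful of fragments each. They passed the filter mainly through their knockout libraries. Copies complicate such counts, since 29 of the 70 members share at least 50% of their 75-base stretches with another annotated gene. Summed over near-identical copies, Hist1h4m with Hist1h4n had 27, 26 and 24 counts in knockout libraries, against 16, 20 and 20 in wild-type libraries, and the groups did not overlap. Hist1h2bq with Hist1h2br had 70, 100 and 70, against 35, 24 and 64, and Hist1h2ao with Hist1h2ap had 71, 58 and 40, against 26, 67 and 28; both sums overlap after scaling.

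Sums over a class or cluster do not depend on how reads were divided among its own members. Over all 70 members the sum was 259 ± 10.3 CPM in knockout and 257 ± 17.4 CPM in wild type (SD, n = 3 each), a ratio of 1.004. H2A genes summed to 107 ± 2.96 CPM in knockout and 99.4 ± 4.22 CPM in wild type (ratio 1.08), and H4 genes to 9.79 ± 0.253 and 7.70 ± 1.60 CPM (ratio 1.27), with no overlap of the groups for either. H3 genes summed to 7.27 ± 1.24 CPM in knockout and 5.75 ± 0.698 CPM in wild type (ratio 1.27), with overlap. H2B genes summed to 124 ± 6.25 CPM in knockout and 133 ± 10.6 CPM in wild type (ratio 0.932), and H1 genes to 9.97 ± 1.69 and 11.4 ± 4.15 CPM (ratio 0.873), both with overlap. Most of the H2A sum is Hist3h2a, most of the H2B sum is Hist3h2ba and most of the H1 sum is Hist1h1c. The largest part of the H4 sum is Hist1h4i, at 5.50 ± 0.159 CPM in knockout and 3.73 ± 1.03 CPM in wild type. The H4 ratio thus rests in large part on that gene.

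By cluster, the Hist2 sum was 21.8, 25.0 and 22.2 CPM in knockout libraries, against 15.0, 17.1 and 18.9 CPM in wild-type libraries. Its groups do not overlap (ratio 1.35), and most of it is Hist2h2be. Hist1 summed to 42.4 ± 2.24 CPM in knockout and 36.4 ± 6.07 CPM in wild type (ratio 1.16), Hist3 to 193 ± 7.77 and 204 ± 13.1 CPM (ratio 0.947), and both overlap. Leaving out Hist3h2a and Hist3h2ba, a choice made after the values were seen, the other 68 members summed to 67.7, 68.7 and 64.4 CPM in knockout libraries, against 46.8, 55.1 and 63.3 CPM in wild-type libraries. Those knockout libraries were all above the wild-type libraries, though by little for wild-type library 3, and the ratio was 1.22. The 27 members too low to test summed to 190, 158 and 168 counts in knockout libraries, against 71, 114 and 137 in wild-type libraries. Sums carry no test here, because the members were chosen with results of these data known.

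**Figure D3:**
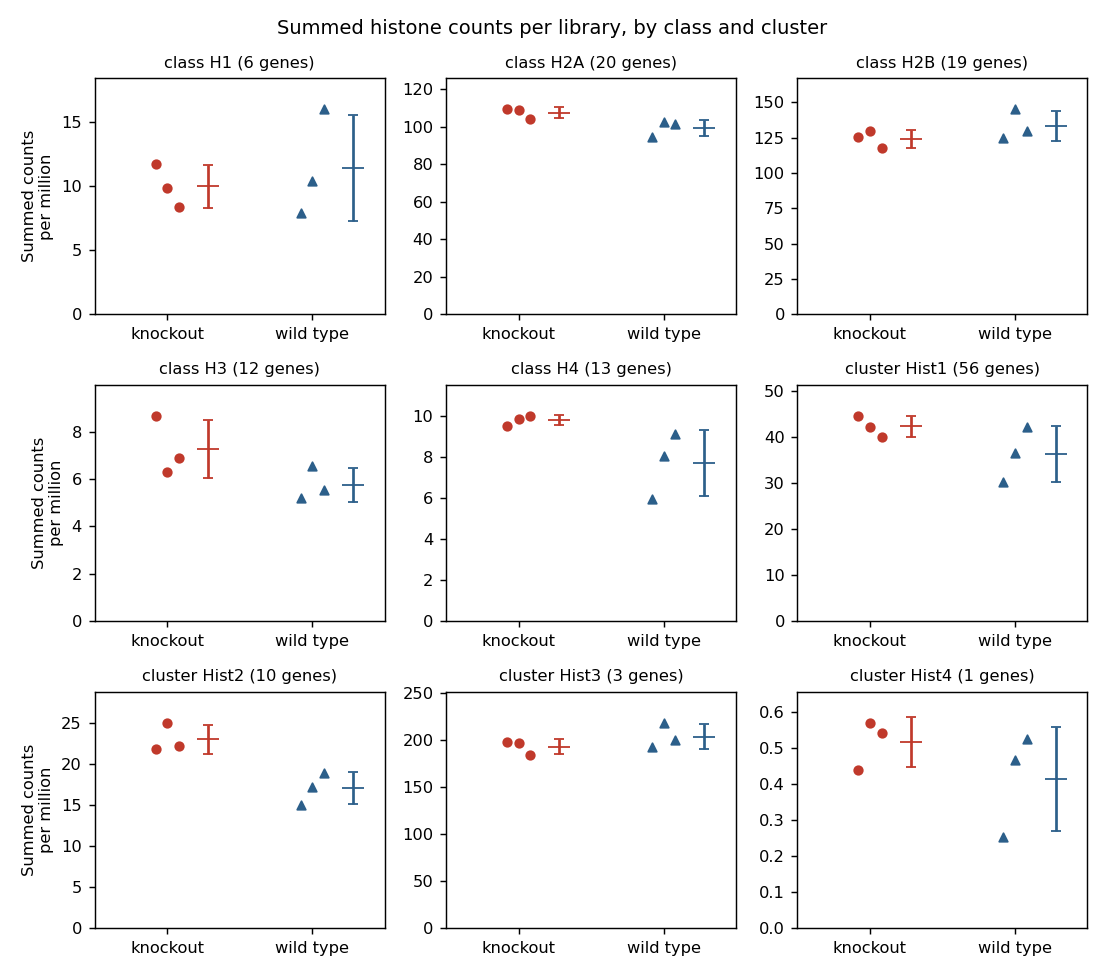
Summed CPM of the histone genes of each class and cluster in each library (knockout circles left, wild-type triangles right), with the mean and SD of 3 libraries beside the points; each panel has its own axis from 0. The genotypes do not overlap for H2A, H4 and Hist2, and overlap for H1, H2B, H3, Hist1, Hist3 and Hist4.

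The most abundant members were annotated with a 3′ end well past the stem-loop, or had no match to it in the annotated transcript. The 22 genes annotated to end within 100 bases past the stem-loop had a median of 0.461 CPM per kb and none exceeded 1.24. The 22 with a longer annotated tail had a median of 0.292, but 7 of them exceeded 1 CPM per kb, and the 2 highest members were among them. Hist3h2a continues for 1643 bases past the stem-loop printed above, Hist3h2ba for 169, Hist1h1c for 840 and Hist1h4i for 330, whereas Hist1h3c ends 74 bases and Hist1h4b 28 bases past it. Hist2h2be and Hist1h2bc had no match in their annotated transcripts, as had 24 other members, and the median over these 26 was 0.269 CPM per kb. Some annotated records with no match are short, such as Hist1h4k (312 bases) and Hist1h2bl (381 bases), and may stop before the stem-loop. A missing match thus does not show that a gene lacks the stem-loop. A longer annotated exon lowers a value per kilobase, so these levels depend on the annotated ends as well as on the reads.

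The genotypes were also set side by side within these groups. Genes annotated to end near the stem-loop summed to 6.45, 6.26 and 6.55 CPM in knockout libraries, against 4.51, 5.98 and 5.29 CPM in wild-type libraries (ratio 1.22), without overlap. Genes with no match summed to 33.7 ± 2.54 CPM in knockout and 26.0 ± 2.26 CPM in wild type (SD, n = 3 each), a ratio of 1.296, also without overlap. Most of that sum is Hist2h2be (17.4 CPM in knockout, 12.5 CPM in wild type) and Hist1h2bc (9.71 and 8.60 CPM), so it largely repeats their values above. Genes with a longer tail, which include both abundant Hist3 genes, summed to 219 ± 8.93 CPM in knockout and 226 ± 15.2 CPM in wild type (ratio 0.966), with overlap. The median log2 fold change of tested members was 0.28 for the 15 near the end, 0.59 for the 12 with no match and 0.32 for the 16 with a longer tail.

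**Figure D4:**
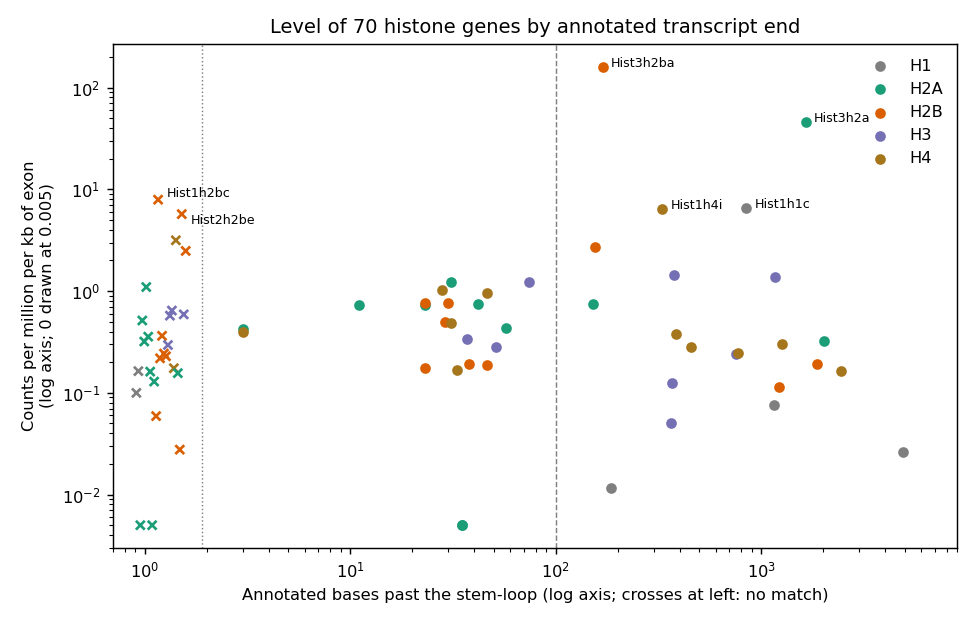
Mean CPM per kb of exon over 6 libraries for the 70 histone genes against the annotated bases past the stem-loop, both on log axes and coloured by class; the crosses at left have no match, and the dashed line marks 100 bases. Hist3h2ba (160 CPM per kb) and Hist3h2a (46.1) lie right of the line, and no gene left of it that has a stem-loop exceeds 1.24.

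Along the chromosomes, members at most 100 kb apart formed 8 blocks (mm10). The 29 genes at chr13:23531050-23764406 summed to 29.3 ± 2.91 CPM in knockout and 27.4 ± 4.62 CPM in wild type (SD, n = 3 each), with 9 of 17 tested estimates above 0. The 5 genes at chr13:22035164-22043676, among them Hist1h4i and Hist1h2bj, summed to 7.002 ± 0.594 CPM in knockout and 4.62 ± 0.961 CPM in wild type, with 4 of 4 above 0. The 19 genes at chr13:21715763-21837530 summed to 6.04 ± 0.451 CPM in knockout and 4.32 ± 0.610 CPM in wild type, with 10 of 12 above 0. The smaller blocks of the Hist1 cluster thus had the higher medians (0.59 and 0.70, against 0.18 in the block of 29), without a test of that difference.

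H2A and H2B genes often lie head to head, with starts under 500 bases apart, and 14 such pairs were found among the members. Both genes were tested in 8 pairs, and the estimates had the same sign in 6. Estimates were above 0 for 9 of 11 tested H2A genes and 9 of 12 H2B genes. Many equal signs thus arise whatever the pairing, and a link within pairs was not tested. Hist1h2ae and Hist1h2bg, whose starts are 176 bases apart, had 0.55 (SE 0.47) and 0.65 (SE 0.28), and Hist2h2ac and Hist2h2be, 239 bases apart, had 0.28 (SE 0.68) and 0.48 (SE 0.15). The exceptions were Hist1h2bf with Hist1h2ad (-0.27 and 0.55) and Hist3h2bb-ps with Hist3h2a (-0.20 and 0.10).

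The start regions carry short motifs known from histone genes. In the RefSeq promoters (GRCm38.p6, 250 bases before to 50 after the start), which were matched for 62 of the 70 members, 4 sets of letters were searched on both strands. The octamer ATTTGCAT, which POU-domain factors bind, was found in 7 of 18 H2A and 6 of 16 H2B promoters, in none of the 6 H1, 10 H3 and 12 H4 promoters, and in 1.74% of all 32851 promoters of the same length. Head-to-head partners share part of their windows, so the H2A and H2B counts are not separate. The same octamer counts for both Hist1h2ae and Hist1h2bg, both Hist1h2ah and Hist1h2bk, and both Hist1h2aa and Hist1h2ba. CCAAT, bound by the factor NF-Y, was in 53 of 62 members' promoters (85.5%), among them every H1, H2A, H2B and H3 promoter and 3 of 12 H4 promoters, against 37.4% of all promoters. TATAAA was in 35 of 62 (56.5%), against 13.6% of all. AAACACA, a motif known from H1 genes, was in 5 of 6 H1 promoters, against 7.18% of all. The promoters of the abundant Hist3 genes and of Hist1h2bg are printed because the Hist3 genes are the most abundant members and Hist1h2bg is the member of a head-to-head pair with both an octamer and an unadjusted p under 0.05. Capitals mark the octamer, CCAAT and TATAAA on either strand; a match in letters describes the sequence and is not evidence of binding.
Hist3h2a, chr11:58954435-58954734, plus strand: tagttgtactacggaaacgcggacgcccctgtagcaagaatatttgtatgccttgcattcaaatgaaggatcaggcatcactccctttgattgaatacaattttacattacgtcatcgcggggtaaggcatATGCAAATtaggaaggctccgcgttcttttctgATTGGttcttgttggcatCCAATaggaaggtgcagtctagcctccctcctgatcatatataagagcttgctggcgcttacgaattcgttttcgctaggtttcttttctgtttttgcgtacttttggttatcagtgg
Hist3h2ba, chr11:58948661-58948960, plus strand: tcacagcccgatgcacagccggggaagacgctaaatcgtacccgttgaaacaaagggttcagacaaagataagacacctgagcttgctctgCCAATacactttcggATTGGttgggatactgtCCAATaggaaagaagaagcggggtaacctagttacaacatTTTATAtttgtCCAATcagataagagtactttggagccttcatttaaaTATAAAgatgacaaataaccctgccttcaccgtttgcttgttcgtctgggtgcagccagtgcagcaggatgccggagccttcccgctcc
Hist1h2bg, chr13:23571150-23571449, plus strand: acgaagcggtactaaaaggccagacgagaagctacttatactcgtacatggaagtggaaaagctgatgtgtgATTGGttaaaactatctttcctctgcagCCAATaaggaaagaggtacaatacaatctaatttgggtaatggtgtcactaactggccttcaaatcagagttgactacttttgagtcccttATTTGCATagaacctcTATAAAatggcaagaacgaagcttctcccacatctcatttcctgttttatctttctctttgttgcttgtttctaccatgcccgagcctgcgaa

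The Hist3h2a promoter holds the octamer on the opposite strand, first base at -119 from the start, and CCAAT on either strand at -86 and -68. Hist3h2ba has no octamer in this window, 4 CCAAT matches between -159 and -76, and TATAAA on either strand at -87 and -39. Hist1h2bg has the octamer at -59 and TATAAA at -43, and the same octamer falls in the RefSeq promoter of its neighbour Hist1h2ae.

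Genes that make, process or carry these histones were compared as 3 lists, against 5.21% of all genes called higher and 2.53% called lower. Of 15 tested genes for transcription and 3′ end processing of histone mRNA, such as Slbp and Npat, none was called in either direction by edgeR (1 had an unadjusted p under 0.05, and DESeq2 called 0), and their median log2 fold change was 0.05. The member of smallest p was Lsm11, a component of the U7 particle that cuts histone pre-mRNA, at 51.3 ± 3.78 CPM in knockout and 61.0 ± 4.56 CPM in wild type (-0.25, SE 0.09, adjusted p = 0.137). Casp8ap2, which also takes part in that cut, was at 45.9 ± 1.24 CPM in knockout and 40.03 ± 4.32 CPM in wild type (0.20, SE 0.09, adjusted p = 0.264). Of 12 replication-independent histone variants, only Cenpa, the H3 variant of centromeres, rose, at 36.9 ± 4.29 CPM in knockout and 26.3 ± 2.54 CPM in wild type (0.49, SE 0.12, adjusted p = 0.0350), and none fell; the adjusted p was above the threshold when knockout library 2 or 3 or wild-type library 1 or 2 was left out (up to 0.147), and with limma-voom (0.0524). The median of that list was 0.01.

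Of 12 chaperones and assembly factors of replicating chromatin, 3 rose and none fell, with a median of 0.11. Asf1b, a chaperone that takes part in handing new H3 and H4 to copied DNA, was at 7.10 ± 0.588 CPM in knockout and 3.61 ± 0.261 CPM in wild type (0.97, SE 0.16, adjusted p = 0.0072). Uhrf1, which brings maintenance methylation to copied DNA, rose by 0.61 on the log2 scale (SE 0.11, adjusted p = 0.0092). Hells, a chromatin remodeller, rose by 0.64 (SE 0.17, adjusted p = 0.0473), and its call was lost with limma-voom (adjusted p = 0.0569) and without any library but wild-type library 3 (up to 0.183). Values after ± are SD over 3 libraries a group.

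Cell cycle genes gave more calls than the histone genes. Of 30 S-phase genes, 8 rose and none fell, and the list's median was 0.35. The histone median was 0.43 over the 43 tested members, but 29 of these had a mean count under 40. It was 0.18 over the 11 members with at least 1 CPM in 3 libraries, and the sum over all members had a ratio of 1.004. The summed level of the S-phase genes was 1209 to 1246 CPM in knockout libraries, against 950 to 1059 CPM in wild-type libraries. The largest among those called were E2f2, a transcription factor of S-phase entry (0.73, SE 0.15, adjusted p = 0.0200), Mcm10, which helps start replication (0.73, SE 0.18, adjusted p = 0.0393), and the kinase Cdk2 (0.65, SE 0.14, adjusted p = 0.0199). Left out in turn, every library but wild-type library 3 ended the calls of E2f2 (up to 0.0829) and Mcm10 (up to 0.137), and the same libraries except knockout library 1 ended that of Cdk2 (up to 0.0917). The count of S-phase calls was 1 when knockout library 3 or wild-type library 1 was left out, 2 when wild-type library 2 was, 3 when knockout library 1 or 2 was, and 15 when wild-type library 3 was. Of 22 mitosis genes, 17 rose and none fell (median 0.59), with Hmmr at 0.99 (SE 0.16), Bub1 at 0.81 (SE 0.14) and Cenpe at 0.79 (SE 0.11), all genes of the spindle or the kinetochore. Their sum was 1168 to 1191 CPM in knockout libraries, against 689 to 865 CPM in wild-type libraries. A call depends on the precision of a gene as well as on its change: the median SE was 0.12 in the S-phase list and 0.56 in the histone list. Whether the histone genes changed less or more than the cell cycle genes was not tested.

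**Figure D5:**
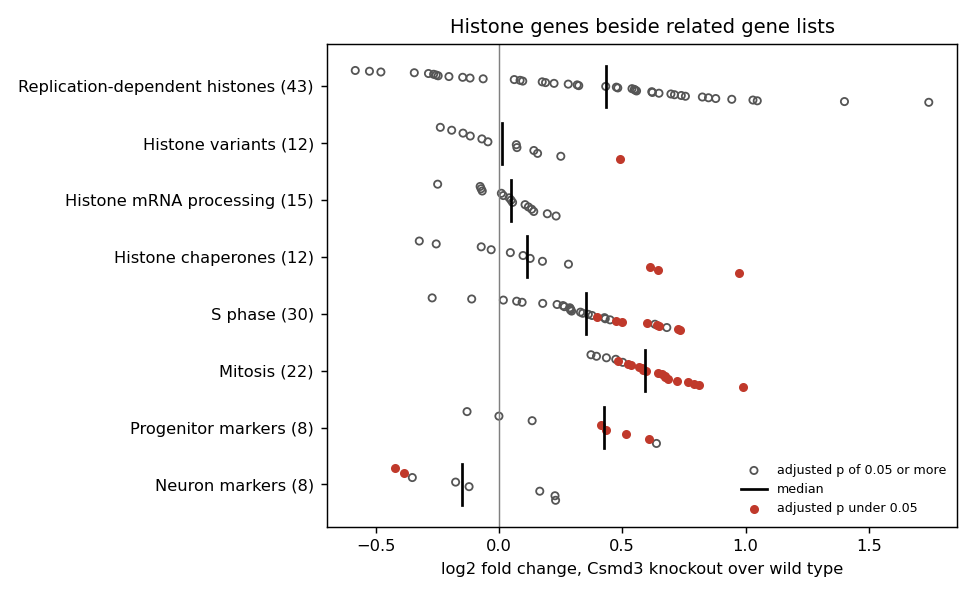
Log2 fold change of knockout over wild type for the tested histone genes and 7 related gene lists, a point a gene, filled where the adjusted p is under 0.05, with a black line at each list's median; the number of tested genes is in parentheses. The histone genes spread from -0.58 to 1.74 with no filled point, whereas 17 of 22 mitosis genes and 8 of 30 S-phase genes are filled.

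Non-histone genes beside the chromosome 13 cluster were mostly too low to test. Of 13 listed, 12 were in the table and 4 were tested, and Hfe, a regulator of iron uptake, rose (76, 101 and 154 counts in knockout libraries, against 33, 45 and 32 in wild-type libraries; 1.53, SE 0.39, adjusted p = 0.0459). That call was lost without any library but knockout library 1 (up to 0.186) and with limma-voom (0.126).

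Markers of other cell types also differed between the genotypes, and their values stand beside every result above. All 12 meninges markers rose (summed level 721 to 960 CPM in knockout libraries, against 79.1 to 86.2 CPM in wild-type libraries), as did 6 of 8 microglia and macrophage markers (82.3 to 101, against 29.7 to 33.4 CPM) and 4 of 7 endothelium markers (278 to 354, against 151 to 179 CPM). The call of the meninges marker Aldh1a2 was lost when knockout library 1 or 3 or wild-type library 1 was left out (up to 0.0769). Of the 7 choroid plexus markers 5 were tested and only Aqp1 rose; their sum was 9.55 to 487 CPM in knockout libraries, against 0.775 to 1.29 CPM in wild-type libraries, where Folr1 was at 0. None of 8 erythroid markers was called by edgeR or by DESeq2 (0 each; 1 had an unadjusted p under 0.05; 1886 to 2203, against 1520 to 2106 CPM). Of 8 cortical progenitor markers, 4 rose and none fell (985 to 1105, against 771 to 871 CPM), among them Btg2 (0.61), Neurog2 (0.52) and Pax6 (0.43). The call of Neurog2 was lost when knockout library 2 or 3 or wild-type library 1 or 2 was left out (up to 0.0620), and that of Pax6 when knockout library 1 or 3 or wild-type library 1 was (up to 0.0774). Of 8 cortical neuron markers, Tubb3 (-0.42) and Cux2 (-0.39) fell and none rose (4511 to 4944, against 5061 to 5860 CPM), and both calls were lost when any knockout library was left out, that of Tubb3 also without wild-type library 1 (up to 0.0983). The part of these other cells in the histone values was not tested.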

How the data were processed

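Bulk RNA-seq of 3 Csmd3-/- and 3 wild-type cortices was used. The authors' deposited table gave whole numbers per gene, treated as estimated counts because values pile up at multiples of 4 (1298 genes at 4 in wild-type library 1, against 492 at 3 and 318 at 5); being whole, they were not rounded. Per the submitters' processing notes, the tools were HISAT2 2.0.5, StringTie 1.3.4, Trim Galore 0.4.4 and FastQC 0.11.9, with the build mm10. The sources used here do not give the counting program, annotation release, strand handling or mRNA selection. For this reason, reads of 23 members that overlap a gene on the other strand cannot be told apart from its reads. Of the 24 such genes in the deposited counts, 8 had a count above 0. Exons of 7 members also overlap those of a gene on the same strand, which strand handling would not resolve.

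Rows were named from GENCODE M21 (55141 of 55401; unnamed rows held at most 0.0238% of counts). Genes kept by filterByExpr were scaled by TMM and compared with the robust quasi-likelihood F-test of edgeR 4.0.16 in R 4.3.3, Benjamini-Hochberg adjusted over all 19844 genes with a threshold of 0.05. Adjusted p-values are those of edgeR except where another tool is named. Each fold change is the log2 of knockout over wild type, SE is the absolute log2 fold change over the square root of F, and CPM uses the TMM library size. The procedure was tested on simulated data with changes planted only in better expressed genes, so that check does not cover the low histone genes.

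Depth was 54244288 to 68269607 counts per library, and the tested members had a median of 6.67 fragments per library. Named genes were Csmd3, members with unadjusted p under 0.05, the 3 highest members of each class per kilobase, all tested members of Hist2, Hist3 and Hist4, and from each list up to 3 called genes or else the 2 of smallest p. The members and lists were chosen with earlier results of these data known. Alternatives were RLE scaling, DESeq2 1.42.0, limma-voom (limma 3.58.1), other filters, counts divided by 4, a replicate block, leaving out each library, and leaving out knockout libraries 2 and 3.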

Additional observations from a re-analysis of the deposited data

How the results depend on the processing

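Most counts and medians of the histone genes kept their direction; those that did not keep their value follow. The count of all genes called higher was 686 with the replicate block and 262 with knockout libraries 2 and 3 left out together; the count called lower was 921 by DESeq2, 255 with the block and 43 without those libraries. Leaving out 1 library at a time gave 472 to 1402 higher and 137 to 956 lower. Of the histone genes, 1 was called higher by DESeq2 (Hist2h2be) and 0 to 2 with 1 library left out (Hist2h2be and Hist1h4i without wild-type library 3). Their median log2 fold change was 0.37 with limma-voom and with the block, 0.55 with no filter on low counts (66 members), 0.18 at a CPM of at least 1 in 3 libraries, 0.17 with counts divided by 4 and 0.35 without knockout libraries 2 and 3, and 0.29 to 0.52 with 1 library left out.

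With no filter, the medians were 1.22 for H1 and 0.42 for H2A. At a CPM of at least 1 they were 0.10 for H2A, 0.18 for H2B, 0.21 for H3 and 0.23 for Hist1, and with counts divided by 4 they were 0.15 for H2A, 0.32 for H2B, 0.31 for H3 and 0.31 for Hist2; fewer genes were tested in both. Without knockout libraries 2 and 3 they were 0.76 for H1, 0.39 for H2A, 0.00084 for H2B, 1.08 for H3 and 0.36 for Hist1. With 1 library left out, the medians ran over -0.38 to 0.98 for H1, 0.26 to 0.55 for H2A, 0.29 to 0.63 for H2B, 0.16 to 0.65 for H3, -0.052 to 0.28 for H4, 0.34 to 0.58 for Hist1, -0.20 to -0.038 for Hist3 and 0.048 to 0.52 for Hist4. The ratios of sums ran over 0.756 to 1.09 for H1, 1.14 to 1.40 for H4, 1.07 to 1.27 for Hist1, 1.04 to 1.44 for Hist4 and 1.13 to 1.31 for all members but Hist3h2a and Hist3h2ba.

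Of 264 values of the 20 named members under the alternatives, 256 kept direction and side of the threshold, 3 passed it and 5 changed sign: Hist1h1c (0.060 without wild-type library 3, the top of a range from -0.45 with 1 library left out), Hist1h2ao (-0.081 without wild-type library 1 and -0.031 without 3, in a range up to 0.83), Hist1h4k (-0.052 without wild-type library 3, in a range up to 0.58) and Hist2h3c1 (-0.011 without wild-type library 2, in a range up to 0.14).

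For the other lists, without knockout libraries 2 and 3 no histone variant, chaperone, S-phase, mitosis, neighbour, neuron or progenitor gene was called (0 of each), and 2 choroid plexus, 1 endothelium and 3 microglia and macrophage markers were. With the block 5 S-phase genes and 0 neighbours were called, and Mcm10 (adjusted p = 0.0645), Aldh1a2 (0.0829) and Lum (0.0571) were not; limma-voom called 0 variants and 0 neighbours, and DESeq2 called 3 choroid plexus and 7 endothelium markers and 1 chaperone lower. With 1 library left out, calls ran over 0 to 2 for variants, 1 to 15 for S phase, 11 to 19 for mitosis, 0 to 1 for neighbours, 1 to 2 for choroid plexus, 0 to 2 for neurons and 2 to 5 for progenitors. The cause was not tested.

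Replicate numbers did not pair the libraries: deviations of same-numbered libraries from their group means correlated at 0.0283, -0.0026 and 0.0016 over genes. With the block the call of Csmd3 was lost (adjusted p = 0.0664). At a median of 6.67 fragments per library, small changes of most histone genes were not detectable.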
